A study of Mus with 51 samples.

Results

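The comparison described here follows CD4 T cells that had responded to an agonist peptide from 1 h to 6 h after stimulation. It sets 3 libraries of cells sorted as CD69-high after 6 h with the MCC peptide against 3 libraries of cells sorted in the same way after 1 h, 6 libraries of the 51 in the series, chosen by the labelled sorting phenotype and time. All cells came from lymph nodes of mice with the 5C.C7 T cell receptor transgenes on a B10.A background that lacks Rag2, so the mice carry T cells of a single receptor, which recognises a fragment of moth cytochrome c (MCC), and cannot rearrange antigen receptors of their own. Besides MCC CD69-hi at 6 h and 1 h, the groups used are MCC+GP CD69-hi at 6 h and 1 h (3 libraries each), where GP is an agent the labels do not spell out, and cells without peptide (NP) at 6 h (2 libraries) and 1 h (3 libraries). The labels do not say that the libraries of a group came from separate animals or cultures, so every p-value measures only the spread between these libraries.

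Engagement of the T cell receptor first switches on immediate early genes, whose transcription needs no new protein and is soon shut off again, among them the FOS, EGR and NR4A factors. Within hours a second set follows, which in CD4 T cells includes interleukin-2 and its high-affinity receptor, and the cell leaves quiescence, losing the homing programme of naive cells and building up ribosomes, amino acids, nucleotides and lipids before it divides. CD69, the surface protein used for the sort, is an early activation marker that keeps cells in the lymph node by opposing the egress receptor S1PR1.

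Total counts ran from 5961902 to 8029952 in the MCC CD69-hi libraries of 6 h and from 852129 to 3346959 in those of 1 h, and from 29030 to 10278776 over all 51 libraries. Replicate 2 of 1 h was the shallowest of the 6. The markers of CD4 T cells, which include Cd3e, Cd4 and Trac, were present in every library. They summed to 13605 to 17507 CPM, a library's counts scaled to a common total, at 6 h, against 11868 to 14454 at 1 h. Trbc1 and Trac made up most of that sum, and Trac and Trbc2 were higher in every 6 h library than in every 1 h library. Cd3e, Cd3d, Cd3g, Cd4, Lck and Thy1 were lower in every 6 h library. Thy1, for example, stood at 120 to 142 CPM at 6 h, against 391 to 509 CPM at 1 h. Transcripts of B cells, which the Rag2-deficient strain should lack, were present too. Over 22 B cell genes the sum was 899 to 1768 CPM in the 6 h libraries, against 3523 to 5572 in the 1 h libraries, and 13 genes of MHC class II presentation to 487 to 1453, against 3918 to 6982. NP libraries held 474 to 768 CPM of B cell genes at 6 h, against 573 to 806 CPM at 1 h. RNA of other cells moved with time in the MCC libraries. The number of members that fell is therefore also given with the B cell sum of each library as a covariate of the fit. It is given for lists in which more members fell than rose and for others where it differed by over 1.5 times. With MCC the B cell sums of 6 h and 1 h did not overlap, so this covariate cannot separate other cells from time. The cause of a call lost with it was not tested.

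Levels of single genes are CPM scaled by the library's effective size, given in the order of replicates 1, 2 and 3. Changes are log2 fold changes ± SE of 6 h over 1 h from a quasi-likelihood fit across all libraries (edgeR), and a gene is said to have risen or fallen where its Benjamini-Hochberg adjusted p-value over the 17211 tested genes was below 0.05. In bulk RNA, fewer cells of a type and less RNA per cell cannot be told apart.

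Between 1 h and 6 h with MCC a large part of the transcriptome moved. Of the 17211 genes tested, 3817 rose, 22.2% of all, and 3178 fell, 18.5%. More than 2-fold changes numbered 2373 upward and 2441 downward, and changes over 8-fold 300 upward and 619 downward. The genes that rose included the interleukin-2 and chemokine genes Il2 and Xcl1. Among the gene lists chosen here, all tested members for ribosome assembly and the proteasome rose, and most for amino acid supply and protein folding. The genes that fell included 23 of 32 immediate early factors and 35 of 42 genes of naive and quiescent T cells. With size factors of the RLE kind all changes moved down by 0.15 on the log2 scale, and 3228 genes rose and 3808 fell, so which direction held more genes depended on the scaling. DESeq2 gave 3538 rising and 4018 falling, and libraries thinned to the shallowest 2342 and 2512.

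**Figure D1:**
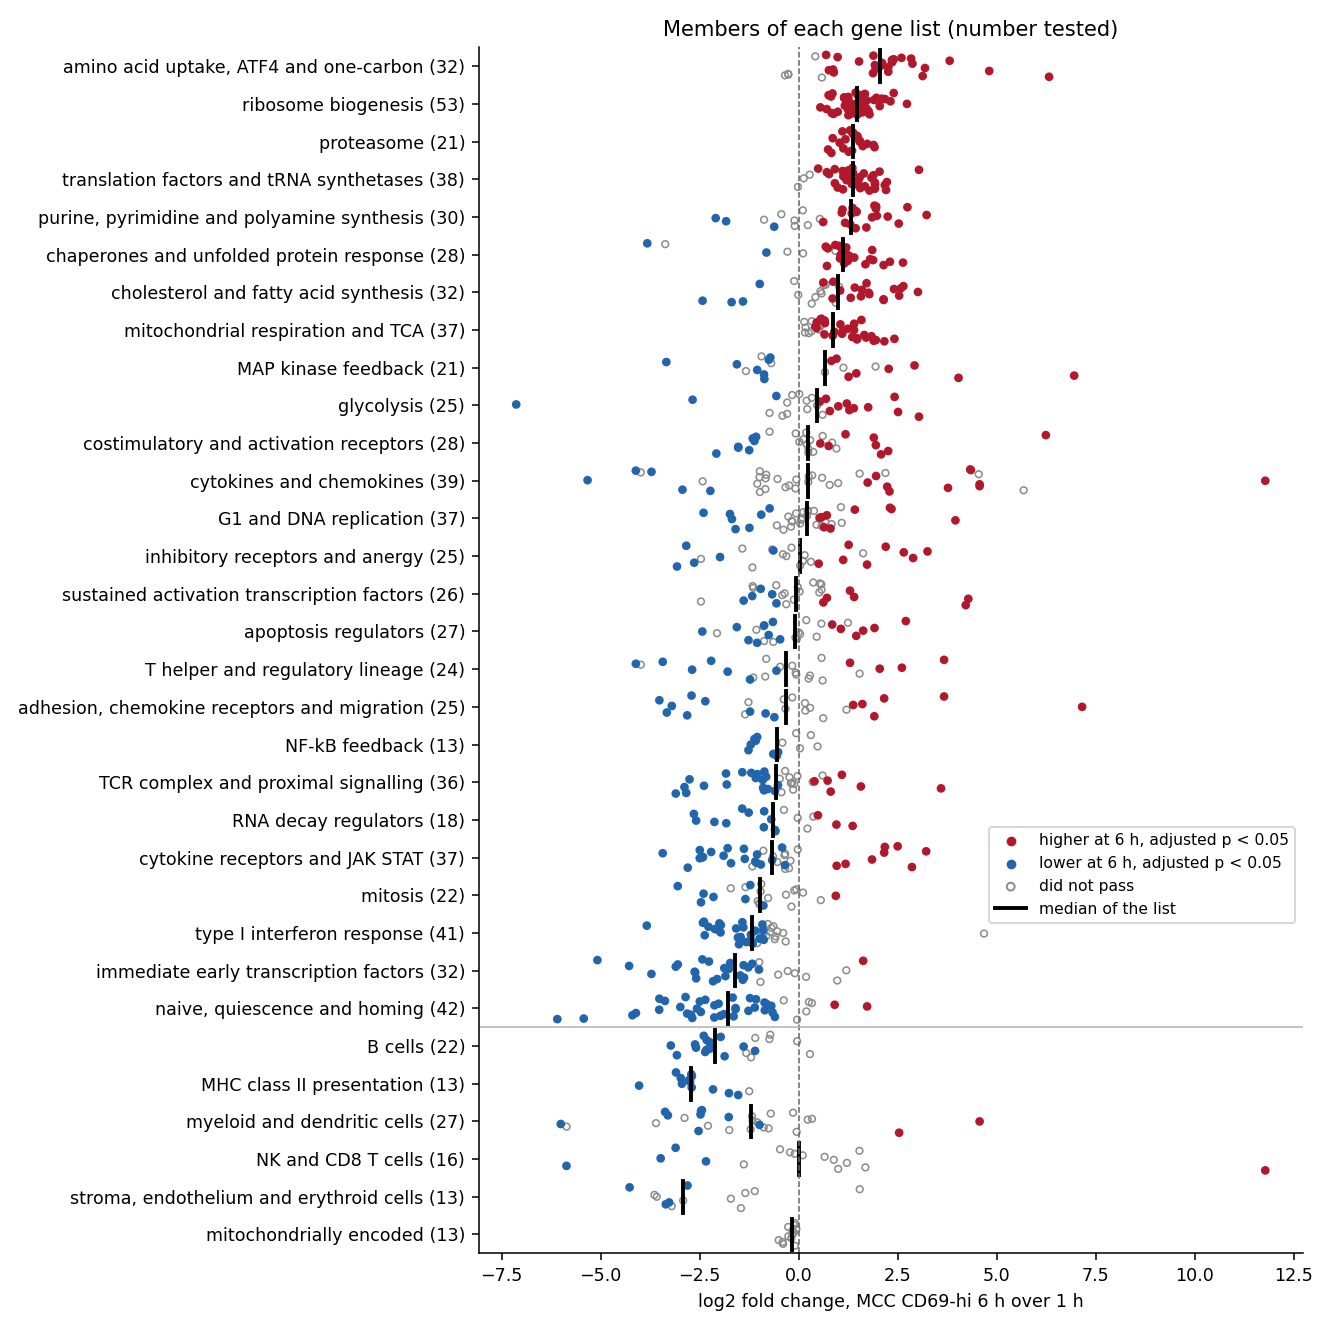
Log2 fold change of MCC CD69-hi cells at 6 h over 1 h (horizontal axis) for the tested members of each gene list (vertical axis, number tested in brackets). Red points rose, blue points fell, open points did not pass, and black bars are list medians; lists below the grey line mark other cells or the mitochondrial genome, and the value of Xcl1, far right, is a fitted one against no count at 1 h. The biosynthetic lists sit to the right of 0, and the immediate early, naive and interferon lists to the left.

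The cells were sorted on CD69, so Cd69 itself comes first. It stood at 755, 1167 and 1103 CPM at 6 h, against 1181, 1935 and 1923 CPM at 1 h. Every 1 h library was above every 6 h library, though the nearest of them were almost equal, and the change of -0.73 ± 0.44 did not pass (adjusted p = 0.19). A fit limited to the 6 libraries gave -0.90 with an adjusted p of 0.00319.

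Immediate early transcription factors had fallen by 6 h. Of 32 measured, 9 fell and none rose in NP cells, with a median log2 fold change of -0.74. With MCC 23 fell and 1 rose. The list median with MCC was -1.60, against 0.02 over the 14257 genes with at least 1 CPM at either time. The number that fell was 21 with the B cell sum as a covariate. Fosb, a subunit of the AP-1 transcription factor, stood at 30.7, 14.9 and 17.4 CPM at 6 h, against 559, 864 and 700.1 CPM at 1 h. The groups lay far apart, a change of -5.08 ± 0.53 (adjusted p = 8.29e-10), and the 6 h level was close to the 21.6 and 20.4 CPM of NP cells at 6 h. Egr3, a zinc finger factor that restrains T cell activation together with Egr2, stood at 87.9, 76.3 and 110.4 CPM at 6 h, against 1307, 1790.2 and 2245 CPM at 1 h, a change of -4.28 ± 0.46 (adjusted p = 1.87e-09). Egr1 was at 362, 476 and 599 CPM at 6 h, against 2729, 3979 and 5203 CPM at 1 h (-3.05 ± 0.78, adjusted p = 0.00168). Egr2 fell less, to 352, 361 and 388 CPM at 6 h, against 675, 1097 and 1118 CPM at 1 h (-1.39 ± 0.45, adjusted p = 0.0133). All 3 EGR factors were lower in every 6 h library than in every 1 h library.

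The NR4A nuclear receptors, which are induced by receptor signals and restrain effector function, kept high levels as they fell. Nr4a1 stood at 3196, 4127 and 4572 CPM at 6 h, against 7057, 10533 and 11133 CPM at 1 h, and no library of 6 h reached the lowest of 1 h (-1.27 ± 0.47, adjusted p = 0.0295). Leaving out 1 library ended that call for 1 h replicates 2 and 3 and 6 h replicates 1 and 2, with adjusted p between 0.0523 and 0.0997. Nr4a3 stood at 2469, 2787 and 2539.7 CPM at 6 h, against 8297, 8627 and 9534 CPM at 1 h (-1.76 ± 0.28, adjusted p = 2.88e-06). Its NP levels of 31.8 and 36.8 CPM at 6 h, against 614, 806 and 547 CPM at 1 h, fell more steeply, and the difference between the time changes passed (2.49 ± 0.44, adjusted p = 2.06e-05). Nr4a2 fell with a log2 change of -1.88 ± 0.34 (adjusted p = 2.52e-05).

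Within the AP-1 family Fosl1 went against the list. It stood at 62.9, 77.8 and 69.4 CPM at 6 h, against 17.3, 23.3 and 27.2 CPM at 1 h, and was the 1 member that rose (1.63 ± 0.28, adjusted p = 2.89e-06). With a block for the plate round of the libraries, Cebpb, a basic leucine zipper factor, rose as well (0.98, adjusted p = 0.0120), and with the B cell covariate or without 1 h replicate 1 it was Ier3, an early response gene, that rose beside Fosl1 (2.63, adjusted p = 0.0184, and 2.41, adjusted p = 0.0480). Fos, Fosl2 and Junb fell with log2 changes of -2.43, -2.27 and -1.73, and Jun, at 54.5, 26.1 and 48.8 CPM at 6 h, against 96.9, 43.1 and 105 CPM at 1 h, did not pass (adjusted p = 0.225). In NP libraries Jun stood at 454 and 104 CPM at 6 h and 353, 236 and 147 CPM at 1 h. Nab1 and Nab2, corepressors that bind EGR proteins, fell with log2 changes of -2.06 and -1.41, and Atf3, a stress-induced repressor, with -2.61. Srf and Mafk had changes of -0.10 ± 0.21 and 0.19 ± 0.25 that did not pass. The fall of Fos did not pass with the B cell covariate (-1.66, adjusted p = 0.0883).

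**Figure D2:**
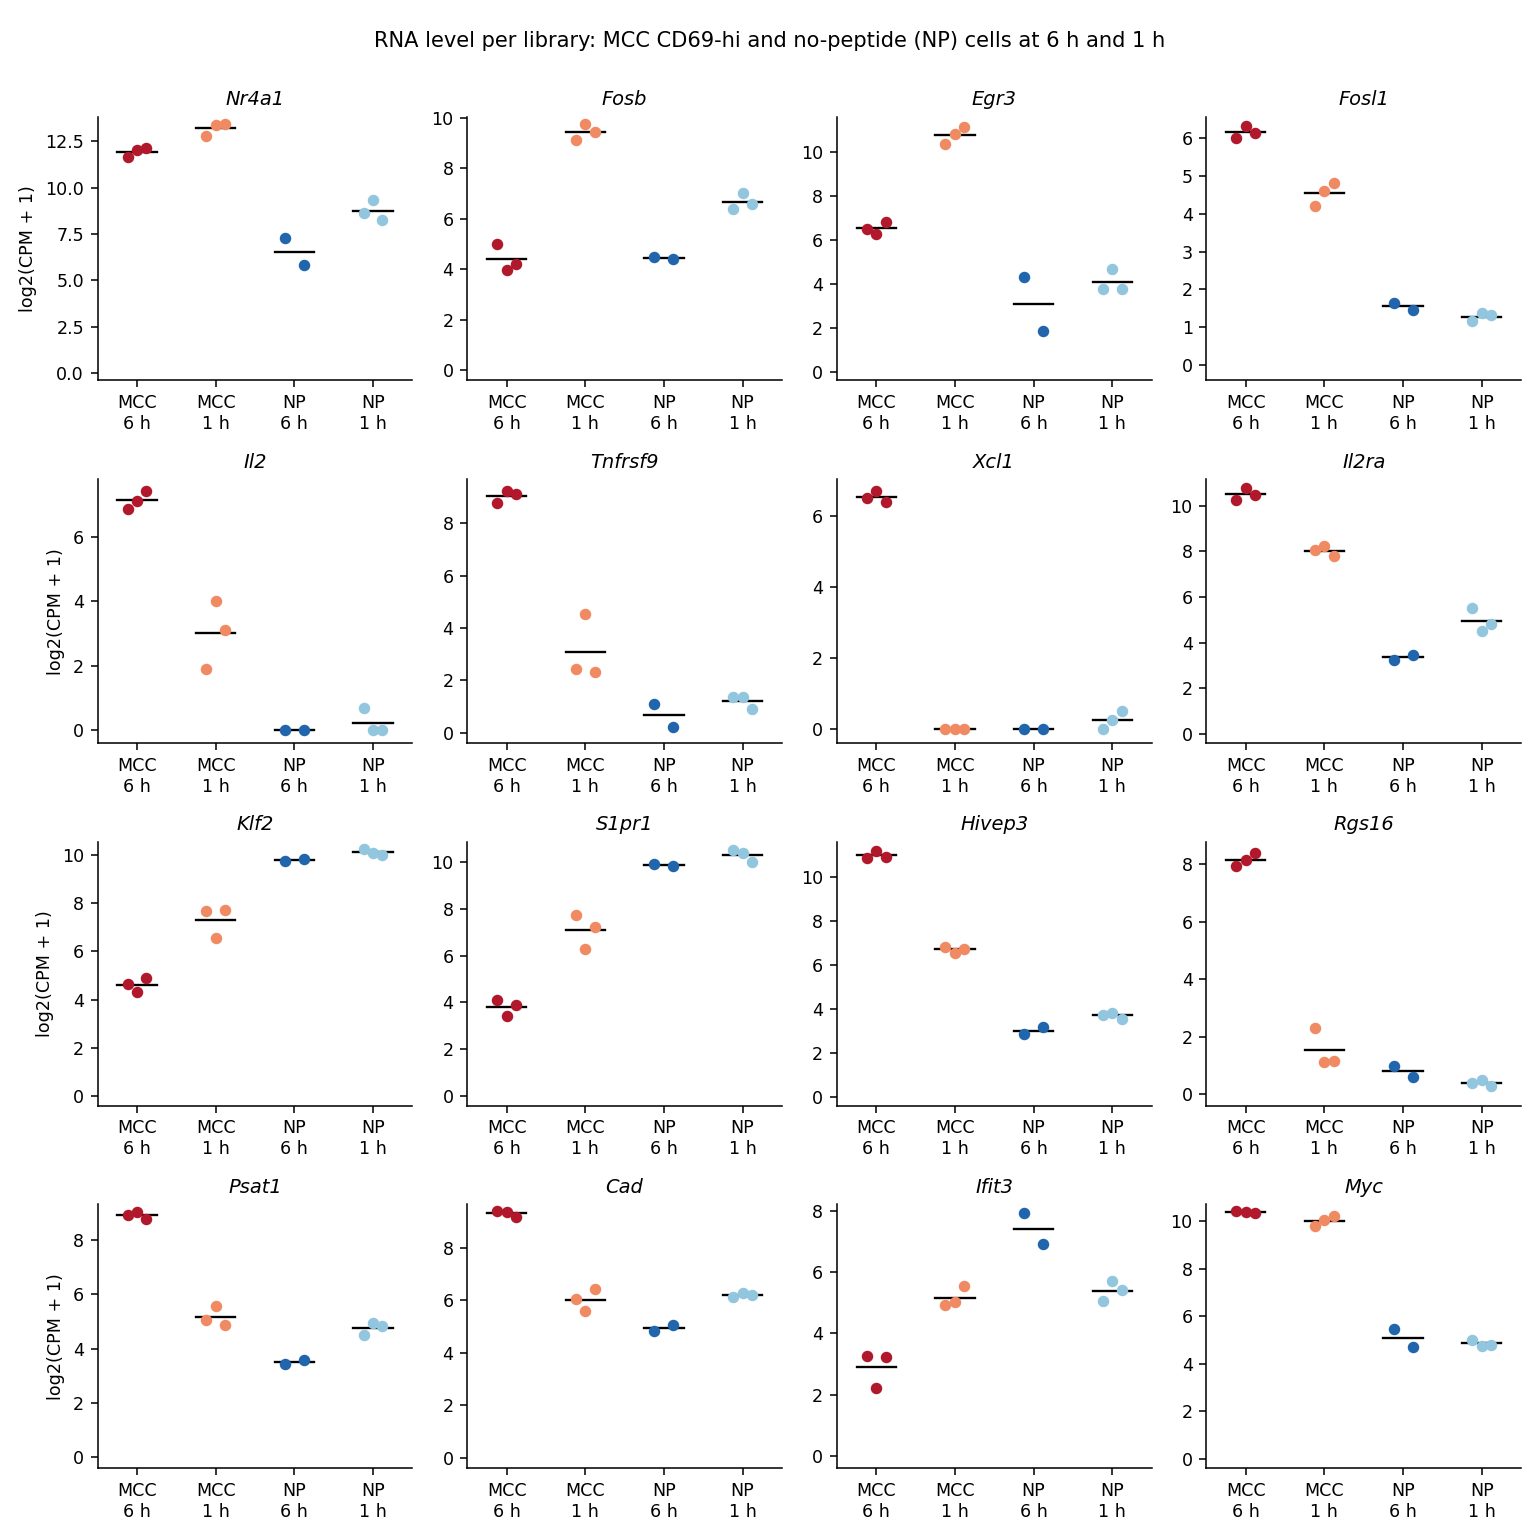
RNA level of 16 genes in each library on a log2(CPM + 1) axis, for MCC CD69-hi at 6 h and 1 h and NP at 6 h and 1 h; points are libraries and bars are group means on that scale. Fosb, Egr3, Klf2, S1pr1 and Ifit3 are lower in all 3 MCC libraries of 6 h than in all 3 of 1 h, and Il2, Xcl1, Tnfrsf9, Il2ra, Hivep3, Rgs16, Psat1 and Cad are higher.

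Of 26 transcription factors that act later in activation, 6 rose, 5 fell and 15 did not pass, with a median change of -0.07. These shares, 23.1% and 19.2%, are near the 22.2% and 18.5% of all tested genes. The number that fell was 8 with RLE size factors, 10 with DESeq2, and 3 without 6 h replicate 1 or with the B cell covariate. Hivep3, a large zinc finger protein that binds kappaB-like motifs, at chr4:119733759-120138045 (GRCm38), stood at 1851, 2284 and 1907 CPM at 6 h, against 111, 92.1 and 105 CPM at 1 h and 6.26 and 7.92 CPM in NP at 6 h. Its 6 h libraries were all many times the 1 h ones (4.28 ± 0.42, adjusted p = 1.82e-10). Tox2, a high mobility group factor, rose to 14.6, 16.4 and 19.7 CPM at 6 h, against 1.18, 0 and 0.928 CPM at 1 h (4.22 ± 0.70). Hif1a, the oxygen-regulated factor that drives glycolytic genes, rose by 1.40 ± 0.15 to 311, 459 and 388 CPM at 6 h, against 144, 145 and 150.0 CPM at 1 h. Gata3, the T helper 2 factor, rose by 1.30 at low levels, though not in thinned libraries (0.99, adjusted p = 0.134), while Rel, an NF-kB subunit central to T cell activation, fell with a log2 change of -0.67 ± 0.18, which did not pass with the B cell covariate (adjusted p = 0.126).

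Myc and Irf4 had reached high levels by 1 h. Myc, which drives growth and metabolism, stood at 1367, 1356 and 1316 CPM at 6 h, against 895, 1051 and 1180.4 CPM at 1 h, and the difference did not pass (0.37 ± 0.22, adjusted p = 0.188), although the groups did not overlap. In NP cells Myc was 43.5 and 24.98 CPM at 6 h and 31.2, 26.2 and 26.8 CPM at 1 h. Irf4, a factor whose level scales with receptor signal, stood at 1974, 2315 and 1913 CPM at 6 h, against 1455, 1381 and 1439.8 CPM at 1 h. Its change of 0.54 ± 0.22 lay at the threshold: adjusted p was 0.0513, and 0.0127 to 0.0446 under the 3 of 13 alternatives in which it passed, the plate-round block among them (0.53, adjusted p = 0.0446). Nfkb1, an NF-kB subunit, likewise passed with that block (0.53, adjusted p = 0.0325) and not without it (0.52 ± 0.22, adjusted p = 0.0555).

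A list of MAP kinase feedback inhibitors and other signalling regulators, Rgs1, Rgs2 and Rgs16 among them, moved in both directions. Of 21 measured, 8 rose (38.1%, against 22.2% of all tested genes) and 7 fell (33.3%, against 18.5%). Rgs16, which shortens signals of G protein-coupled receptors, stood at 240.4, 284 and 329 CPM at 6 h, against 3.94, 1.17 and 1.24 CPM at 1 h (6.96 ± 0.68, adjusted p = 2.13e-10). Spry1 and Spred1, inhibitors of RAS and RAF signalling, rose by 2.93 ± 0.37 and 2.27 ± 0.22, Spry1 to 538, 685 and 597 CPM at 6 h, against 83.5, 51.3 and 95.9 CPM at 1 h. Among the dual specificity phosphatases Dusp4 rose by 0.96 and Dusp10, which acts on p38 and JNK, fell with a log2 change of -3.34 ± 0.35 to 9.95, 12.5 and 10.9 CPM at 6 h, against 157, 72.3 and 103 CPM at 1 h. Dusp16, Dusp5 and Dusp2 fell with log2 changes of -1.56, -0.75 and -0.72, but Dusp2 did not pass without 1 h replicate 2 (-0.65, adjusted p = 0.0501) or 6 h replicate 1 (-0.57, adjusted p = 0.0969). Dusp10 and Dusp16 fell in NP cells too, with log2 changes of -2.27 and -2.56 between the same times.

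Genes of NF-kB feedback fell more often than they rose. None of 13 rose and 8 fell (61.5%, against 18.5% of all tested genes), 6 with the B cell covariate. Tnip2, which binds the inhibitor A20, rose with the plate-round block (0.48, adjusted p = 0.0442) and without 1 h replicate 1 (0.59, adjusted p = 0.0425). The members that fell include Birc3, a ubiquitin ligase of the TNF receptor complex, at 284, 229 and 267 CPM at 6 h, against 639, 628 and 609.8 CPM at 1 h (-1.27 ± 0.18), and Nfkbid, an atypical IkB protein, at 903, 850.3 and 1053 CPM at 6 h, against 1567, 2214 and 2023 CPM at 1 h (-1.05 ± 0.26). Nfkbia and Tnfaip3 had changes of -0.06 ± 0.21 and -0.41 ± 0.27 that did not pass. In NP cells 6 of the 13 fell and 1 rose, with a median of -0.53, against -0.55 with MCC. Of 18 regulators of RNA decay 6 fell and 1 rose in NP cells, with a median of -0.26, against -0.65 with MCC. With MCC 11 of these 18 fell (61.1%, against 18.5% of all tested genes), 11 also with the B cell covariate, and 3 rose. Zfp36, which destabilises cytokine transcripts, fell with a log2 change of -1.43 ± 0.30, and Zc3h12a, the endonuclease Regnase-1, with -1.26 ± 0.17, while Khsrp, another decay factor, rose by 1.36 ± 0.15. The antiproliferative Btg2 stood at 128, 197 and 279 CPM at 6 h, against 806, 1390.4 and 1445 CPM at 1 h (-2.59 ± 0.29).

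Among cytokines and chemokines 10 of 39 measured rose (25.6%, against 22.2% of all genes) and 5 fell. That fall rests on 1 library, since without 1 h replicate 3 only 1 member fell. Il2, at chr3:37120713-37125954 (GRCm38), the growth factor of activated T cells, stood at 116, 137 and 170.5 CPM at 6 h, against 2.76, 15.2 and 7.73 CPM at 1 h. Every 6 h library was several times above the highest of 1 h (4.33 ± 0.47, adjusted p = 7.41e-09). NP at 6 h had no count of Il2, and the difference from the NP time change did not pass (adjusted p = 0.0638), although it did with DESeq2 (adjusted p = 0.0122) and with only the compared groups (adjusted p = 0.0221). Xcl1, a chemokine that attracts cross-presenting dendritic cells, at chr1:164931644-164935522, stood at 90.6, 104 and 83.4 CPM at 6 h and had no count in any library of 1 h. Against the floor of 3 counts over the 1 h group it was at least 205-fold higher at 6 h. Tnfsf8, the ligand of CD30, stood at 199.9, 381 and 247 CPM at 6 h, against 4.72, 20.98 and 13.9 CPM at 1 h (4.57 ± 0.38). Tnfsf14, also called LIGHT, rose by 3.77 ± 0.38, and Lta, or lymphotoxin alpha, by 1.95 ± 0.32.

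Other cytokine genes did not pass or were scarce. Tnf stood at 260.1, 532 and 669 CPM at 6 h, against 179, 448 and 531 CPM at 1 h, with the libraries of both times overlapping (0.34 ± 0.42, adjusted p = 0.556). Cd40lg, which licenses B cells and dendritic cells, stood at 223, 378 and 365 CPM at 6 h, against 322, 700.4 and 715 CPM at 1 h (-0.84 ± 0.35, adjusted p = 0.0514; 0.00443 to 0.0477 under the 9 of 13 alternatives in which the fall passed, the plate-round block among them with -0.83 and an adjusted p of 0.0249). Ifng and Csf2 stayed below 3 CPM in all 6 libraries. Ccl22, a chemokine of dendritic cells that T cells can also make, stood at 473, 259.8 and 529.6 CPM at 6 h, against 22.4, 17.5 and 13.6 CPM at 1 h (4.57 ± 0.71), and Ccl4, another chemokine, rose by 1.74 ± 0.37. Fscn1, a marker of mature dendritic cells, moved with Ccl22, at 284, 114 and 317 CPM at 6 h, against 51.6, 0 and 54.7 CPM at 1 h, and its part in the Ccl22 value was not tested. Il10 stood at 0.355, 0.695 and 1.15 CPM at 6 h, against 4.72, 1.17 and 22.3 CPM at 1 h, and its fall did not pass without 1 h replicate 3 (-2.19, adjusted p = 0.0691).

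Cytokine receptors and their signalling genes fell more often than they rose. Of 37 measured, 8 rose and 19 fell; 19 fell with the B cell covariate. Il2ra, the alpha chain that makes the receptor high-affinity, at chr2:11642792-11693194, stood at 1209.9, 1768 and 1434 CPM at 6 h, against 265, 299.5 and 220.5 CPM at 1 h (2.50 ± 0.35, adjusted p = 3.49e-07). Il2rb rose by 2.18 ± 0.46, while the shared gamma chain Il2rg fell with a log2 change of -0.42 ± 0.16, a call that ended without 1 h replicate 2 (-0.40, adjusted p = 0.0523) or 6 h replicate 1 (-0.30, adjusted p = 0.170). Il12rb1, Il15ra, the kinase Jak2 and the signal transducer Stat5a rose by 3.22, 2.16, 1.85 and 1.18. Il7r, the survival receptor of naive cells, stood at 9.42, 9.59 and 12.8 CPM at 6 h, against 84.3, 52.4 and 42.1 CPM at 1 h (-2.50 ± 0.37). Il18r1, Ifngr1, Ifngr2, Il4ra and Il6ra fell with log2 changes of -3.43, -2.42, -2.44, -1.79 and -1.38, and the kinase Jak1 and the feedback inhibitor Socs3 with -1.36 and -2.80.

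Costimulatory receptors were led by Tnfrsf9, also called 4-1BB, at chr4:150920155-150946104. It stood at 442, 601 and 551 CPM at 6 h, against 4.33, 22.1 and 4.02 CPM at 1 h, the largest rise in its list (6.24 ± 0.60, adjusted p = 1.72e-10). In that list of 28, 8 rose (28.6%, against 22.2% of all tested genes) and 7 fell (25.0%, against 18.5%), 4 with the B cell covariate. Tfrc, the transferrin receptor that supplies iron, and Cd6 rose by 2.08 ± 0.28 and 1.95 ± 0.24, whereas Plaur, the urokinase receptor, fell with a log2 change of -2.08 ± 0.25. Cd28 and Icos had changes of 0.19 ± 0.20 and -0.08 ± 0.19, with overlapping libraries. Among 25 inhibitory receptors and anergy genes 8 rose and 5 fell, 3 with the B cell covariate and 8 with only the compared groups. The share that fell was near the 18.5% of all tested genes, and the share that rose was above their 22.2%. In NP cells 7 of the 25 rose and 4 fell. Pdcd1, which encodes PD-1, stood at 273, 311 and 285 CPM at 6 h, against 52.8, 69.9 and 68.3 CPM at 1 h (2.198 ± 0.35), with 1.32 and 2.29 CPM in NP at 6 h. Ctla4 went the other way, at 2.84, 4.87 and 2.15 CPM at 6 h, against 25.6, 25.6 and 21.3 CPM at 1 h (-2.84 ± 0.31). Cd200, Cd160 and Nrp1 rose by 2.65, 3.25 and 2.89, and the ubiquitin ligase Cblb by 1.12. Dgka, a kinase that removes diacylglycerol and is high in resting and anergic cells, fell with a log2 change of -2.64 ± 0.17 to 53.5, 80.8 and 81.4 CPM at 6 h, against 413, 494 and 441 CPM at 1 h.

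Cd5, an inhibitory receptor tuned by receptor signal strength, stood at 375, 496 and 408 CPM at 6 h, against 148, 191 and 196 CPM at 1 h (1.26 ± 0.31, adjusted p = 0.00102). NP cells moved the other way, with 10.05 and 15.7 CPM at 6 h, against 58.7, 58.4 and 55.7 CPM at 1 h, and the difference between the time changes was 3.43 ± 0.51 (adjusted p = 1.36e-06). With the B cell covariate the rise with MCC was 0.38 and did not pass (adjusted p = 0.314).

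The genes of naive and quiescent cells fell in most cases. Of 42 measured, 35 fell and 2 rose, with a median of -1.78; with the B cell covariate 34 fell. Klf2, the factor that maintains quiescence and drives egress and homing receptors, at chr8:72319062-72321654, stood at 23.8, 19.04 and 28.4 CPM at 6 h, against 204, 92.1 and 208 CPM at 1 h, and at 873 and 902 CPM in NP at 6 h (-2.86 ± 0.33, adjusted p = 5.82e-09). S1pr1, the egress receptor and a known target of Klf2, stood at 16.2, 9.73 and 13.6 CPM at 6 h, against 213, 76.9 and 149 CPM at 1 h (-3.52 ± 0.23). Itgb7, an integrin chain of gut homing, and Rapgef4, a RAP1 exchange factor, fell with log2 changes of -4.11 ± 0.26 and -4.20 ± 0.36. Tcf7 and Lef1, factors of naive and memory identity, fell with log2 changes of -2.02 ± 0.19 and -0.80 ± 0.17. Igfbp4 had the largest fall of the list, at 3.20, 1.53 and 1.29 CPM at 6 h, against 114, 170.2 and 126 CPM at 1 h (-6.09 ± 0.63), and fell in NP as well (-4.66). The 2 that rose were Slfn2, which guards quiescence in mice, by 1.73 ± 0.18, and Bach2, a repressor of effector genes, by 0.91 ± 0.13. Ccr7, the lymph node homing receptor, did not pass (-0.38 ± 0.23, adjusted p = 0.202), but fell without 1 h replicate 2 (-0.68, adjusted p = 0.0170).

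The genes of the receptor moved in both directions. The constant region of the alpha chain, Trac, stood at 4233, 5827 and 5042 CPM at 6 h, against 2459, 3100.1 and 2967 CPM at 1 h, and rose (0.83 ± 0.16, adjusted p = 3.28e-05). The beta constant regions Trbc2 and Trbc1 rose by 0.91 ± 0.14 and 0.45 ± 0.16; as near-identical copies they can share reads, and Trbc1 did not pass in 9 of 13 alternatives, RLE size factors among them (0.29, adjusted p = 0.109). Outside these 3, the list held 36 genes of the receptor complex and its proximal signalling. In NP cells 16 of them fell and 2 rose, with a median of -0.45. With MCC 19 fell and 6 rose, with a median of -0.56, and 21 fell with the B cell covariate. Cd4 stood at 79.4, 80.1 and 93.1 CPM at 6 h, against 272, 345 and 289 CPM at 1 h (-1.83 ± 0.19), and Cd3g and the kinase Lck fell with log2 changes of -1.42 ± 0.23 and -1.04 ± 0.15. The adaptors Grap2 and Trat1 fell with log2 changes of -2.39 and -3.10. The largest rise was Ubash3b, a phosphatase that dampens ZAP-70 signalling, at 395, 524 and 481 CPM at 6 h, against 31.1, 58.3 and 34.6 CPM at 1 h (3.59 ± 0.25). The kinase Fyn rose by 1.09 ± 0.14, while Zap70 and Lat had changes of 0.60 ± 0.26 and -0.03 ± 0.18 that did not pass (adjusted p = 0.0558 and 0.929). With the plate-round block the rise of Zap70 passed (0.61, adjusted p = 0.00288).

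Genes for making ribosomes rose without exception among the listed ones that were tested. All 53 tested rose, by 0.55 to 2.73 on the log2 scale with a median of 1.48, whereas in NP cells 38 of the 53 fell and 1 rose. Wdr12, which acts in maturation of the large subunit, stood at 176, 196 and 170.5 CPM at 6 h, against 32.3, 20.98 and 25.7 CPM at 1 h (2.73 ± 0.27). Polr1b, a subunit of RNA polymerase I, rose by 2.40 ± 0.27, and Dkc1, which modifies ribosomal RNA, by 2.18 ± 0.19. The abundant nucleolar proteins Ncl and Npm1 rose too. Ncl stood at 5105, 4331 and 4503 CPM at 6 h, against 1721, 1582 and 1337 CPM at 1 h, and Npm1 at 2814, 2929 and 2620.1 CPM at 6 h, against 947, 962 and 926 CPM at 1 h. The smallest change was that of Ltv1, 0.55 ± 0.18, which did not pass in 6 of 13 alternatives, RLE size factors among them (0.40, adjusted p = 0.0776). When libraries were thinned to the depth of the shallowest, 50 of the 53 rose.

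Translation factors and tRNA synthetases rose in 35 of 38 cases and fell in none. Eif4ebp1, a repressor of cap-dependent translation controlled by mTOR, had the largest rise, to 60.8, 54.2 and 69.1 CPM at 6 h, against 7.09, 3.50 and 9.28 CPM at 1 h (3.04 ± 0.29). Lars, the leucine synthetase, rose by 2.17 ± 0.15, and Eif5a, which needs hypusine made from polyamines, by 1.88 ± 0.18. Eef2, already at 3452, 3902 and 3887 CPM at 1 h, did not pass (0.13 ± 0.15). Amino acid transporters, ATF4 targets and genes of one-carbon metabolism had the highest median of any list, 2.05, with 27 of 32 rising and none falling (2 with RLE size factors, with DESeq2 or with only the compared groups). Psat1, an enzyme of serine synthesis, at chr19:15905123-15925059, stood at 475, 517 and 436 CPM at 6 h, against 32.3, 46.6 and 28.4 CPM at 1 h (3.81 ± 0.28). Shmt2, which passes serine carbon to folate in mitochondria, rose by 2.87 ± 0.25, the large neutral amino acid transporter Slc7a5 by 2.26 ± 0.30 and the glutamine transporter Slc1a5 by 1.95 ± 0.21. Slc7a3, a transporter of cationic amino acids, was near background at 1 h and rose by 4.81 ± 0.65. Atf4 itself rose less, by 0.69 ± 0.21, and not with the B cell covariate (0.20, adjusted p = 0.547) or without 1 h replicate 1 or 3 or 6 h replicate 2 (adjusted p 0.0504 to 0.0614).

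Enzymes of purine, pyrimidine and polyamine synthesis rose in 20 of 30 cases and fell in 3. Cad, which carries out the first steps of pyrimidine synthesis, stood at 688, 668 and 579 CPM at 6 h, against 65.7, 47.8 and 85.7 CPM at 1 h (3.23 ± 0.20, adjusted p = 3.12e-20). Pfas, of purine synthesis, and Srm, the spermidine synthase, rose by 2.75 ± 0.20 and 2.53 ± 0.22. Rrm2, the ribonucleotide reductase subunit of dividing cells, was among the 3 that fell, at 2.13, 2.22 and 2.01 CPM at 6 h, against 9.06, 11.7 and 4.95 CPM at 1 h, though not with the B cell covariate (-1.43, adjusted p = 0.0973) or in thinned libraries (-2.37, adjusted p = 0.193). In NP cells 16 of the 30 fell and 1 rose.

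Of 25 glycolysis genes 11 rose and 3 fell. Galk1, Slc16a1, a lactate transporter, and Hk2, the inducible hexokinase, rose by 3.04 ± 0.29, 2.51 ± 0.21 and 2.42 ± 0.40, and Pkm and Ldha by 1.28 ± 0.14 and 0.79 ± 0.17. The glucose transporter gene Slc2a1 did not pass, at 84.4, 93.3 and 86.02 CPM at 6 h and 78.7, 105 and 81.9 CPM at 1 h (0.02 ± 0.17). Mitochondrial enzymes and import factors rose in 27 of 37 cases and fell in none, led by the chaperonin Hspd1 (2.42 ± 0.21) and by C1qbp (2.16 ± 0.19), a mitochondrial matrix protein. The 13 genes of the mitochondrial genome gave no call, with a median of -0.16. Genes of cholesterol and fatty acid synthesis rose in 18 of 32 cases and fell in 4. Sqle, a sterol enzyme, rose by 2.58 ± 0.21, and Fasn, the fatty acid synthase, stood at 1707, 1666 and 1491 CPM at 6 h, against 428, 317 and 351 CPM at 1 h (2.15 ± 0.19). Scd1, a desaturase, fell with a log2 change of -2.43 ± 0.54, which was -0.31 (adjusted p = 0.341) with the B cell covariate.

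Genes of protein folding and turnover rose in most cases. Of 28 chaperones and genes of the unfolded protein response 22 rose and 2 fell, and all 21 listed proteasome genes rose, by 0.74 to 1.92. Of the chaperones 1 fell without 1 h replicate 2, and none without 1 h replicate 3 or 6 h replicate 1 or 2. Hyou1, a chaperone of the endoplasmic reticulum, stood at 890.3, 945 and 920.2 CPM at 6 h, against 109.8, 193 and 149 CPM at 1 h (2.63 ± 0.16, adjusted p = 9.71e-20). Hspa5, the abundant BiP, changed by 0.68 ± 0.24 (adjusted p = 0.02), a rise that did not pass in 9 of 13 alternatives, with RLE size factors among them (0.53, adjusted p = 0.0692). In NP cells 20 of the 28 chaperone genes fell and none rose, while 1 of 21 proteasome genes fell. The heat shock gene Hspa1a fell with a log2 change of -3.82 ± 1.43 from uneven levels of 11.8, 26.8 and 36.5 CPM at 1 h, and leaving out 1 h replicate 3 or 6 h replicate 1 or 2 ended that call (adjusted p 0.0928 to 0.131). Psmd1, a regulatory subunit of the proteasome, rose by 1.89 ± 0.18.

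Ccnd2, the D cyclin of early G1, stood at 1733, 1443 and 1751 CPM at 6 h, against 328, 329 and 339.9 CPM at 1 h (2.30 ± 0.20), and its partners Cdk4 and Cdk6 rose by 2.34 ± 0.17 and 1.42 ± 0.32. The inhibitor Cdkn1b, p27, fell with a log2 change of -1.59 ± 0.19, and E2f2, which restrains T cell proliferation in mice, with -2.40 ± 0.30. Over 37 genes of G1 and replication 9 rose and 7 fell, shares of 24.3% and 18.9% that are near the 22.2% and 18.5% of all tested genes; 4 fell with the B cell covariate, and 4 rose with only the compared groups. Over 22 mitotic genes 1 rose and 7 fell, 4 without 1 h replicate 3. Mki67, the proliferation marker, stood at 19.2, 5.84 and 21.97 CPM at 6 h, against 29.5, 15.2 and 38.04 CPM at 1 h, and did not pass (-0.94 ± 0.48, adjusted p = 0.115). Of the 22 mitotic genes 2 fell with the B cell covariate. Top2a stood at 10.3, 5.28 and 11.9 CPM at 6 h, against 11.8, 12.8 and 33.7 CPM at 1 h, and did not pass with that covariate (-0.44, adjusted p = 0.508). Nor did it without 1 h replicate 3 (-0.48, adjusted p = 0.514) or without 6 h replicate 2 (-0.99, adjusted p = 0.0785). The 1 mitotic gene that rose, Cdc20, did not pass in 10 of 13 alternatives, RLE size factors among them (0.80, adjusted p = 0.0987).

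Of 27 apoptosis regulators 6 rose (22.2%, as of all tested genes) and 8 fell (29.6%, against 18.5%), 6 with the B cell covariate. Bcl2l1, which encodes the survival protein BCL-XL, stood at 317, 211 and 282 CPM at 6 h, against 47.2, 31.5 and 41.4 CPM at 1 h (2.71 ± 0.25), and Cflar, the inhibitor of caspase-8, rose by 1.45 ± 0.20. The death effector Bax rose as well, by 1.91 ± 0.20. Mcl1 and the BH3-only genes Bcl2l11 and Pmaip1 fell with log2 changes of -0.65, -0.87 and -1.56; Pmaip1 did not pass with the B cell covariate (-0.67, adjusted p = 0.261). Bcl2 did not pass (0.19 ± 0.33).

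Genes of the type I interferon response fell with MCC and rose without peptide. Of 41 measured, 28 fell and none rose in MCC CD69-hi cells, with a median of -1.18, and 23 fell with the B cell covariate. In NP cells 23 rose and none fell, with a median of 1.16. Ifit3, an interferon-induced antiviral protein, stood at 8.53, 3.61 and 8.47 CPM at 6 h, against 29.5, 31.5 and 45.5 CPM at 1 h with MCC (-2.42 ± 0.51, adjusted p = 0.000204), and at 241 and 120.3 CPM at 6 h, against 32.4, 51.8 and 41.4 CPM at 1 h without peptide (2.12 ± 0.43). At 1 h the MCC and NP libraries of Ifit3 lay in the same range, and they separated by 6 h. Irf7, which amplifies interferon production, fell with a log2 change of -2.05 ± 0.35 with MCC, and the RNA sensor Ddx58 with -2.37 ± 0.21. The 1 member with a positive change above 1, Ifi44, had no count at 1 h and at most 1.15 CPM at 6 h, and did not pass.

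Lineage genes of helper subsets moved in both directions. Of 24 measured, 4 rose (16.7%, against 22.2% of all tested genes) and 7 fell (29.2%, against 18.5%), 5 with the B cell covariate. Cxcr3, a chemokine receptor of T helper 1 cells, stood at 30.7, 42.8 and 37.2 CPM at 6 h, against 1.18, 6.99 and 2.78 CPM at 1 h (3.67 ± 0.55), and Rora, linked to T helper 17 cells, rose by 2.05 ± 0.24. Tbx21, the T helper 1 factor, did not pass (0.58 ± 0.50), nor did Foxp3 of regulatory cells, at 5.33, 3.75 and 2.30 CPM at 6 h and 7.87, 8.16 and 4.95 CPM at 1 h. Bcl6 of follicular helper cells fell with a log2 change of -0.56 ± 0.21, a call that ended without 1 h replicate 1 or 2 or 6 h replicate 1 (adjusted p 0.0552 to 0.0815). Cxcr5, a receptor that B cells also carry, fell with a log2 change of -1.79 ± 0.44, which was -0.13 (adjusted p = 0.756) with the B cell covariate. Of 25 genes of adhesion and migration 6 rose and 9 fell, 10 with the B cell covariate. The share that rose was near the 22.2% of all tested genes, and the share that fell was above their 18.5%. The integrin chains Itgav and Itgb1 rose by 1.61 ± 0.24 and 1.38 ± 0.25 and the chemokine receptor Ccr8 by 2.16 ± 0.47, whereas Cxcr4, the receptor for CXCL12, stood at 10.8, 21.7 and 23.4 CPM at 6 h, against 129, 88.6 and 143 CPM at 1 h (-2.71 ± 0.32).

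The largest changes of single genes were named by size among genes with at least 20 CPM in the higher group and no overlap between the 3 and 3 libraries, a condition that 26.6% of all genes met upward and 17.4% downward. Upward these were Xcl1, Dll4, Rgs16, Tnfrsf9, Slc9b2, Crtam, Bcat1 and Syde2. Dll4, a Notch ligand, stood at 54.7, 23.6 and 73.4 CPM at 6 h, against 1 count in all 1 h libraries together, a ratio of 331 with an exact 95% counting interval of 59.4 to 13106. Crtam, a receptor of activated T cells that binds nectin-like adhesion molecules, stood at 42.99, 43.9 and 48.1 CPM at 6 h, against 0.394, 2.33 and 0.618 CPM at 1 h (5.82 ± 0.81). Bcat1, the cytosolic enzyme that transaminates branched-chain amino acids, stood at 278, 305 and 235 CPM at 6 h, against 9.06, 16.3 and 5.26 CPM at 1 h (5.00 ± 0.32). Slc9b2, a sodium-proton exchanger, and Syde2 rose by 5.84 ± 0.64 and 4.98 ± 0.42, with 1 h levels of 1.57, 0 and 0 and of 0.394, 3.50 and 1.24 CPM.

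Downward the rule named Igkv4-74, Jchain, Ighv1-4, Igfbp4, Dzip1, Nsg2, Dapl1 and Thbs1. The first 3 are immunoglobulin genes. Igkv4-74, a kappa variable segment, was high in 1 library only, with 1 count in all 6 h libraries, against 1.18, 233 and 2.47 CPM at 1 h, and Ighv1-4, a heavy chain segment, in another, with 0.178, 0.139 and 0.574 CPM at 6 h, against 66.5, 2.33 and 1.24 CPM at 1 h. Without 1 h replicate 1 the change of Ighv1-4 was -2.40 and did not pass (adjusted p = 0.219). Jchain, which joins secreted antibodies, stood at 0.178, 0.139 and 0.574 CPM at 6 h, against 165, 61.8 and 97.7 CPM at 1 h, high in all 3 libraries of 1 h (-8.38 ± 1.01). Dzip1, a ciliary protein that also restrains Hedgehog signalling, fell with a log2 change of -5.88 ± 0.31 to 1.78, 0.417 and 1.01 CPM at 6 h, against 52.4, 65.3 and 67.1 CPM at 1 h. Nsg2, a vesicle protein of neurons, and Dapl1, a protein of naive T cells, fell with log2 changes of -5.54 ± 0.28 and -5.43 ± 0.54. Thbs1, or thrombospondin-1, stood at 1.07, 0.556 and 0.287 CPM at 6 h, against 44.1, 33.8 and 4.02 CPM at 1 h, with replicate 3 far below the other 1 h libraries, and its fall did not pass with the B cell covariate (-3.24, adjusted p = 0.0951).

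Among markers of other cells, most B cell and MHC class II genes fell, while 16 of 27 myeloid and dendritic genes were not called. Of 22 B cell genes 15 fell, of 13 MHC class II genes 12 and of 27 myeloid and dendritic genes 9, with medians of -2.10, -2.71 and -1.21, while 2 myeloid genes, Ccl22 and Fscn1, rose. With the B cell covariate 5 of the MHC class II and 2 of the myeloid genes fell, and 4 of the myeloid genes without 6 h replicate 2. The rise of Fscn1 did not pass with only the compared groups (2.40, adjusted p = 0.0505). Cd79a, a chain of the B cell receptor, stood at 51.3, 27.5 and 50.3 CPM at 6 h, against 266, 174 and 232 CPM at 1 h, and H2-Aa at 101, 39.6 and 129 CPM at 6 h, against 976, 477 and 839.6 CPM at 1 h. The myeloid sum itself was 486 to 1072 at 6 h, against 464 to 685 CPM at 1 h, with Lyz1, Siglech and S100a9 at 0 in all 6 h libraries. Erythroid, stromal and endothelial genes summed to 23.3 to 58.8 CPM at 6 h, against 127.9 to 446 at 1 h with MCC. In NP libraries they summed to 479 to 499 CPM at 6 h, against 296 to 316 at 1 h. With MCC 4 of 13 fell, 1 with the B cell covariate and 1 to 2 without 1 h replicate 1 or any 1 of the 6 h replicates. Pecam1, a member, fell in all 13 alternatives, and which cells its RNA came from was not tested. Of 16 genes of NK and CD8 T cells 4 fell (25.0%, against 18.5% of all tested genes), 2 with the B cell covariate and 1 with only the compared groups. Xcl1 rose, as did the chemokine gene Ccl5 with the plate-round block (1.11, adjusted p = 0.0265), and Cd8a and Cd8b1 together held 3.85 to 6.54 CPM at 6 h, against 4.35 to 21.1 at 1 h. With the B cell sum as a covariate 5734 genes changed in place of 6995, and of the 22 B cell genes 4 fell and 6 rose. The covariate is the sum of these same 22 genes, so their calls under it are no separate result.

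**Figure D3:**
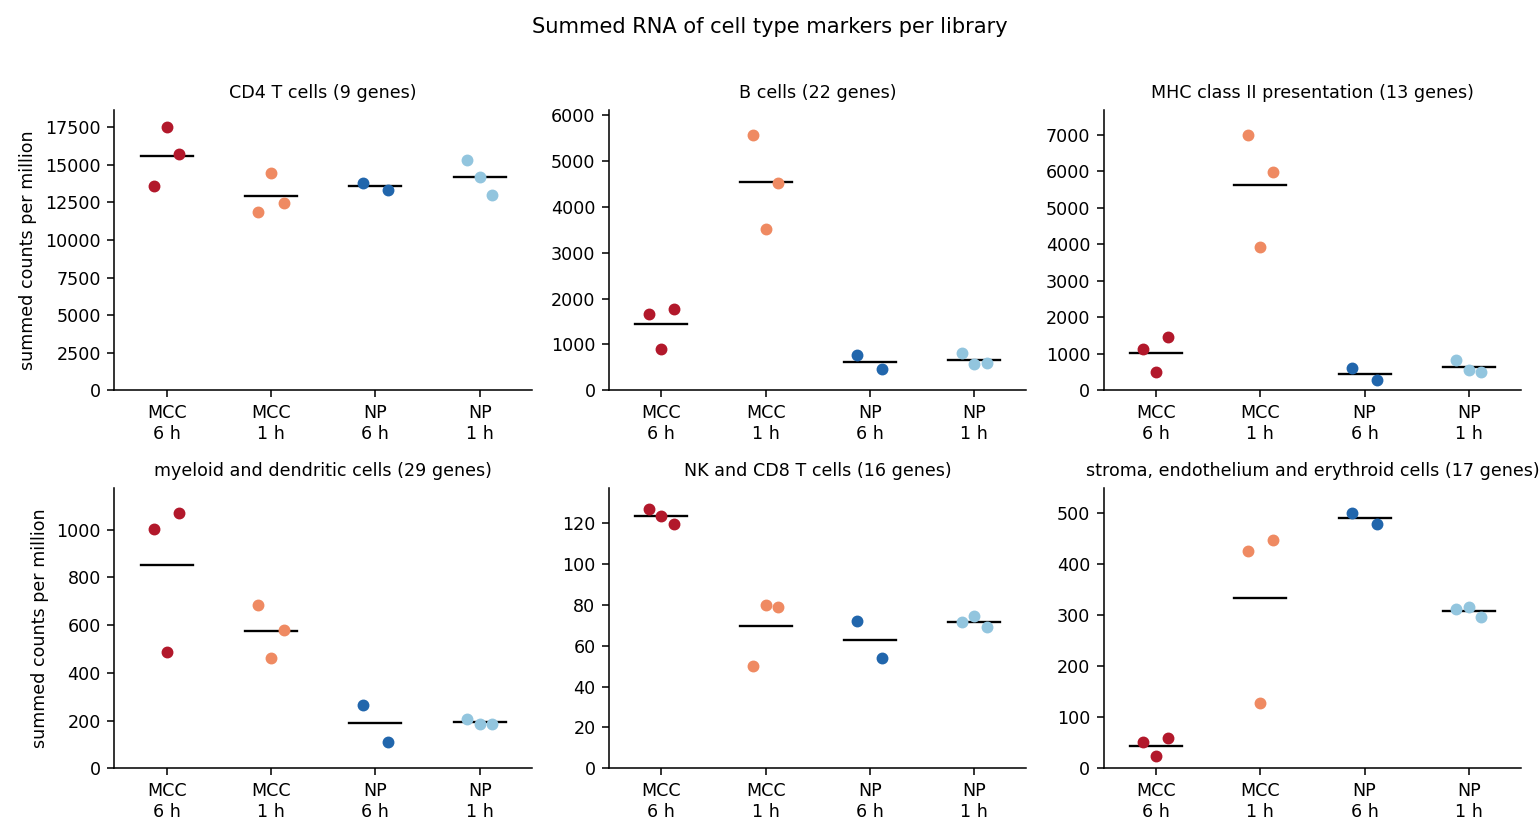
Summed CPM of cell type markers (vertical axis, from 0) in each library of MCC CD69-hi at 6 h and 1 h and NP at 6 h and 1 h; points are libraries and bars are group means. B cell and MHC class II sums are lower in all 3 MCC libraries of 6 h than in all 3 of 1 h.

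Cells without peptide show what moved over the same hours in the absence of agonist. Their labels name no CD69 gate, whereas the MCC libraries are of the CD69-hi sort, so peptide and sorting cannot be told apart here. In NP 2845 genes were called, 16.5% of those tested, of which 1339 rose (7.78%) and 1506 fell (8.75%). With RLE size factors 1513 rose and 1400 fell and with DESeq2 2304 and 2036, so that here too the larger direction depended on the scaling. Of the genes that rose with MCC 335 also rose in NP, 8.78% of the first set and 25.0% of the second, and 530 fell in NP. Of the genes that fell with MCC 522 also fell in NP, 16.4% and 34.7% of the sets, and 356 rose. These comparisons share no library. The difference between the time changes passed for 5140 genes, 29.9% of all, with 2894 changing more upward with MCC (16.8%) and 2246 more downward (13.0%). This balance turned with RLE size factors (2351 upward and 2704 downward), with DESeq2 (2841 and 3213) and in thinned libraries (1469 and 1618). NP at 6 h rests on 2 libraries, and 1830 genes were called without 6 h replicate 1 and 1466 without 6 h replicate 2.

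The difference was in favour of MCC for all 53 ribosome biogenesis genes, all 21 proteasome genes, 35 of 38 translation genes and 26 of 32 genes of amino acid supply. It was against MCC for 32 of 42 naive genes and 35 of 41 interferon genes. Over all tested genes it passed for 29.9%, and for immediate early genes for 8 of 32, against MCC for 6 and in favour of it for 2. These counts rest on the pair of NP libraries of 6 h: without replicate 1 they were 4 and 2, and without replicate 2 they were 9 and 1. The Egr1 difference of -4.55 ± 1.11 passed (adjusted p = 0.0016), but the NP libraries of 6 h held 432 and 7.04 CPM in replicates 1 and 2, and without replicate 1 the difference was 0.29 (adjusted p = 0.943). The Egr3 difference of -3.67 ± 0.71 did not pass without that library either (-1.78, adjusted p = 0.265), while Egr2 and Fos passed without replicate 2 (-2.05, adjusted p = 0.0248, and -2.53, adjusted p = 0.0471). Car12, a carbonic anhydrase, had one of the largest differences, at 73.02, 95.2 and 59.02 CPM at 6 h, against 7.87, 6.99 and 4.64 CPM at 1 h with MCC, and 0.823 and 0.352 CPM at 6 h, against 7.68, 10.6 and 16.5 CPM at 1 h without peptide (7.80 ± 0.64, adjusted p = 1.35e-14). Npas4, an activity-induced factor known from neurons, stood at 95.05, 107 and 80.1 CPM at 6 h, against 1.18, 8.16 and 7.11 CPM at 1 h with MCC, and had no count in NP at 6 h, so that its fitted difference depends on the prior count; it did not pass in 7 of 18 alternatives, among them leaving out either NP library of 6 h (adjusted p 0.0785 and 0.0905). In the other direction Mgst2, a glutathione transferase of the membrane, and Als2cl, a RAB5 regulator, changed by -4.72 ± 0.38 and -4.11 ± 0.27 with MCC and rose in NP by 0.91 ± 0.21 and 0.72 ± 0.24.

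**Figure D4:**
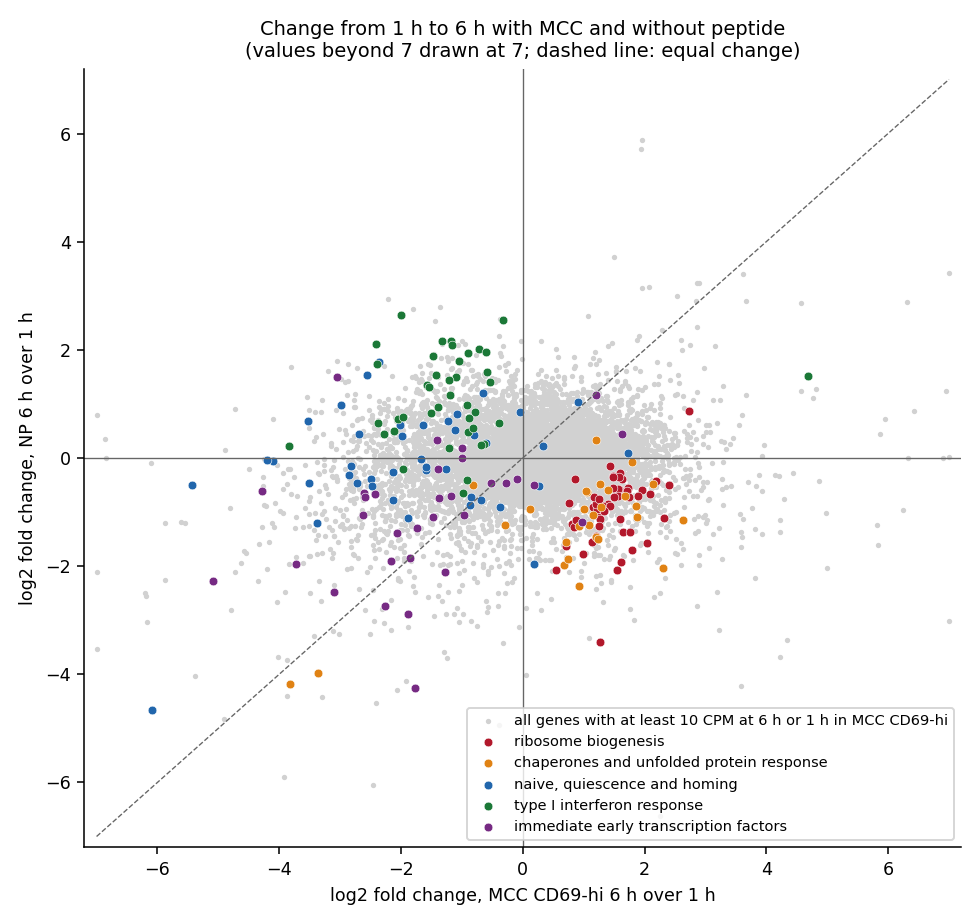
Log2 fold change of 6 h over 1 h in MCC CD69-hi cells (horizontal axis) and in NP cells (vertical axis). Each point is a gene, grey for all genes with at least 10 CPM at either time with MCC and coloured for 5 lists. Values beyond the limit given in the figure title are drawn at that limit. Most ribosome and chaperone genes lie at the lower right, higher with MCC and lower without peptide, and most interferon genes at the upper left.

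The same hours were also measured in MCC+GP CD69-hi cells, in libraries that the MCC comparison does not use. There 7564 genes were called, 43.9%, with 4032 rising (23.4%) and 3532 falling (20.5%); with RLE size factors 41.0% of the called genes rose in place of 53.3%. Of the genes that rose with MCC 3116 rose with MCC+GP, 81.6% of the first and 77.3% of the second set, and 3 fell. Of those that fell 2210 fell, 69.5% and 62.6% of the sets, and 5 rose. Lists moved alike: all 53 ribosome biogenesis genes rose, 20 of 32 immediate early genes and 35 of 42 naive genes fell, and 35 of 41 interferon genes fell. Il2 stood at 149, 128 and 221 CPM at 6 h, against 2.13, 6.20 and 1.69 CPM at 1 h with MCC+GP (5.67 ± 0.60), and Tnfrsf9 at 495, 651 and 599.7 CPM at 6 h, against 12.8, 8.27 and 2.53 CPM at 1 h (6.27 ± 0.64).

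The time change differed between MCC+GP and MCC for 11 genes, 0.0639% of those tested, 10 of them more positive with MCC+GP (0.0581%) and 1 more negative (0.00581%); 1725 genes had an unadjusted p below 0.05. DESeq2 called 95, and a fit limited to the 4 groups called 0, with 656 below an unadjusted p of 0.05. Elmo2, an adaptor of RAC activation, stood at 30.99, 23.1 and 32.1 CPM at 6 h, against 6.39, 7.24 and 6.74 CPM at 1 h with MCC+GP, and at 26.6, 25.7 and 31.3 CPM at 6 h, against 31.5, 36.1 and 20.7 CPM at 1 h with MCC (2.08 ± 0.33, adjusted p = 0.00075). Dapk1, a death-associated kinase, rose in both, by 3.50 ± 0.33 with MCC+GP and 1.38 ± 0.23 with MCC (2.11 ± 0.43, adjusted p = 0.0201). That difference did not pass in 9 of 19 alternatives, with adjusted p of 0.0557 with the plate-round block and 0.0602 to 0.165 without 1 h replicate 1 or 6 h replicate 3 of MCC, or without replicate 1 or 3 of either time of MCC+GP. Sphk2, a kinase that makes sphingosine-1-phosphate, rose by 2.15 ± 0.27 with MCC+GP and had a change of 0.31 ± 0.20 with MCC. Zfp644, a zinc finger protein, rose by 0.64 ± 0.18 with MCC+GP and changed by -0.53 ± 0.16 with MCC, a fall that did not pass without 1 h replicate 3 (-0.43, adjusted p = 0.0620). Its difference did not pass in 10 of 19 alternatives, RLE size factors among them (adjusted p = 0.0892), with adjusted p of 0.0555 to 0.148 in the 7 of them that left out 1 library. The MCC+GP libraries of 1 h held 930161 to 1105292 counts, a depth at which levels of a few CPM rest on a few counts.

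**Figure D5:**
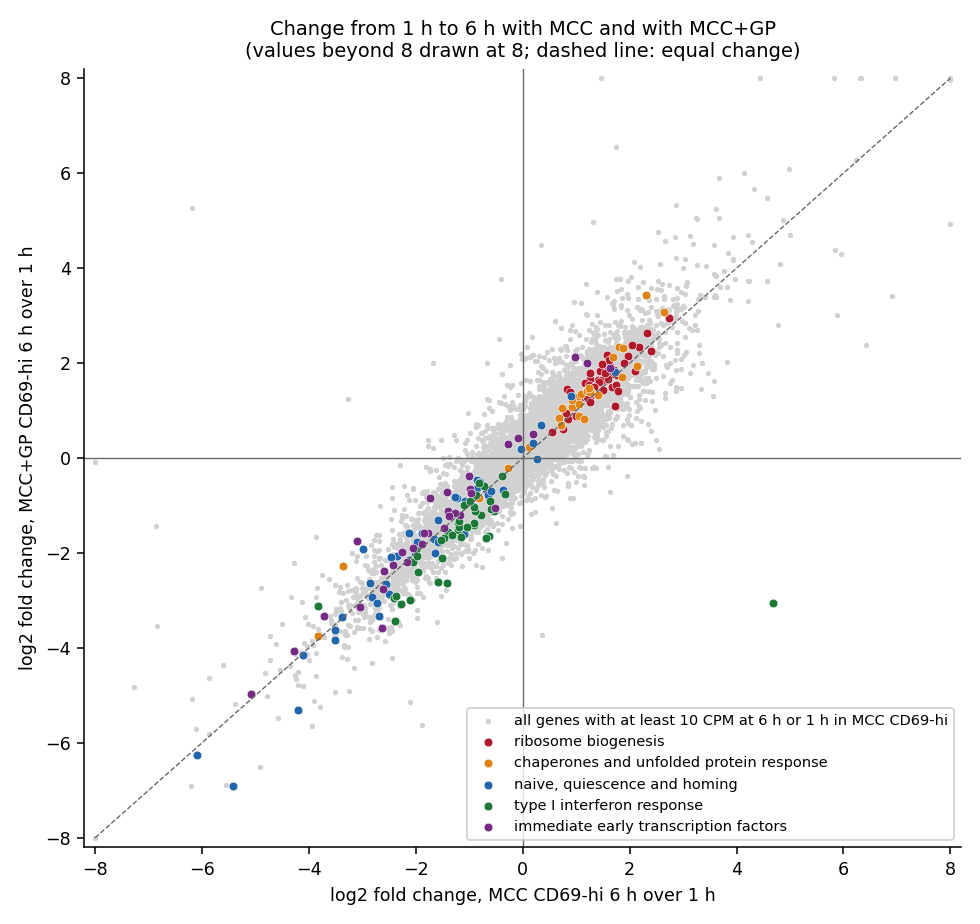
Log2 fold change of 6 h over 1 h in MCC CD69-hi cells (horizontal axis) and in MCC+GP CD69-hi cells (vertical axis); each point is a gene, grey for all genes with at least 10 CPM at either time with MCC and coloured for 5 lists. Values beyond 8 are drawn at 8, and most points lie along the dashed line of equal change, and all 53 ribosome biogenesis genes are right of 0 and above it.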

How the data were processed

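Poly-adenylated RNA of sorted cells was sequenced as paired reads, per the labels' protocols. The submitters' processing notes name bcl2fastq 2.20, STAR 2.6.1c, HTSeq 0.9.1 and the build mm10; strandedness and annotation are not given in the sources used here. The authors deposited raw counts per gene (34923 features, 0 without a name, 38 with a repeated symbol) and a TPM table, which was not used. Whole reads without molecular identifiers were counted, so floors and counting intervals cover counting error only. Multigene families such as immunoglobulin segments can share reads and are uncertain.

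All 51 libraries entered 1 fit in R 4.3.3, where each group had its own coefficient (limma 3.58.1 and edgeR 4.0.16): TMM, filterByExpr by group, glmQLFit with robust estimation, glmQLFTest, two-sided, Benjamini-Hochberg over 17211 genes at 0.05. SE is the size of the log2 fold change over the root of F. The script was tested on simulated data. Replicates of the compared groups differed by more than counting error (chi-square per degree of freedom 5.87 to 13.3), so none is a copy. Plate rounds, read from the wells in the sample titles and not described there, were checked as pairing: deviations of same-round libraries of 6 h and 1 h correlated at 0.253, 0.137 and 0.126 over 6767 genes, above 0.1 in each case, and so the rounds were taken as pairs in an alternative fit. Other alternatives were RLE size factors, no filter, DESeq2 1.42.0, only the compared groups, thinned libraries, a B cell sum as covariate and each library left out.

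The members and the 32 gene lists (866 distinct genes, of which 2 are absent and 1 has a repeated symbol) were chosen with earlier results of these data known. Named genes are a panel of 14, the 8 largest changes each way with at least 20 CPM in the higher group and no overlap, up to 6 members per list with at least 5 CPM, further list members given with their values, Trac, Trbc1 and Trbc2, which were added after their values were seen, and the 6 largest differences each way between time changes. Coordinates are of RefSeq genes on GRCm38.p6, matched by symbol for 15035 tested genes. No sequence is printed.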

Additional observations from a re-analysis of the deposited data

Results flagged for a closer look

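The 6 h over 1 h change was compared between groups by a test of their difference, and the results that passed are given as values. The change in MCC CD69-hi cells differed from that in NP cells for 5140 genes. Among genes that changed more upward with MCC, the difference of log2 fold changes was 7.80 for Car12, 7.90 for Npas4, which had no count in NP at 6 h, 7.44 for Slc9b2, 7.21 for Tnfrsf9, 7.06 for Crtam and 7.04 for Bcat1. The Npas4 difference did not pass in 7 of 18 alternatives, and those of Tnfrsf9, Crtam and Bcat1 did not pass in thinned libraries (adjusted p 0.369 to 0.488). Among those that changed more downward it was -10.76 for Igkv4-74, which rests on 1 h replicate 2, -5.63 for Mgst2, -5.15 for Ifit1bl1, -4.94 for Ncmap, -4.93 for Dapl1 and -4.83 for Als2cl. Ifit1bl1, of the IFIT family, stood at 3.38, 3.06 and 4.74 CPM at 6 h, against 15.7, 15.2 and 19.8 CPM at 1 h with MCC, and at 158 and 134 CPM at 6 h, against 12.3, 26.8 and 18.2 CPM at 1 h in NP.

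The change in MCC+GP CD69-hi cells differed from that in MCC CD69-hi cells for 11 genes, and the named ones differed by 1.17 for Zfp644, 1.84 for Sphk2, 1.97 for Thap7, 2.00 for Fbxo46, 2.08 for Elmo2 and 2.11 for Dapk1, of which Zfp644 and Dapk1 did not pass in 10 and 9 of 19 alternatives. Thap7 stood at 25.8, 40.8 and 33.5 CPM at 6 h, against 10.7, 5.17 and 6.74 CPM at 1 h with MCC+GP, and at 30.02, 28.2 and 32.7 CPM at 6 h, against 20.5, 32.6 and 28.8 CPM at 1 h with MCC.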

How the results depend on the processing

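The count for MCC CD69-hi at 6 h against 1 h, 6995 genes, was 4854 (libraries thinned to the shallowest) to 7556 (DESeq2) over the alternatives, and 5932 to 6500 without a single library. The paired fit, with a replicate block by plate round, gave 7377 genes, and 3327 for NP, 5553 for the difference from NP, 7218 for MCC+GP and 10 for the difference between MCC+GP and MCC; with it Zap70, Irf4, Nfkb1, Cd40lg, Cebpb, Tnip2 and Ccl5 passed and the Dapk1 difference did not, the number of rising members became 2 in place of 1 for immediate early genes, 1 in place of 0 for NF-kB feedback and 2 in place of 1 for NK and CD8 genes, and it changed no other call of a named gene and no other list count for MCC by over 1.5 times. For NP, 2845 genes became 4340 with DESeq2 and 4317 with only the compared groups, and 1466 to 2536 without a single library. The difference from NP, 5140 genes, was 3087 in thinned libraries and 4229 to 4904 without a single library. For MCC+GP, 7564 genes became 4994 with only the compared groups and 6478 to 6784 without a single library. The 11 genes of the difference between MCC+GP and MCC became 95 with DESeq2, 3 in thinned libraries, 23 without a filter on low counts, 0 with only the compared groups, where 656 had an unadjusted p below 0.05, and 6 to 27 without a single library.

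Over named genes and alternatives for MCC CD69-hi, direction and side of the threshold were kept in 3740 cases, the call was lost in 176 and gained in 36, and 2 reversed. With the B cell covariate the haemoglobin genes Hba-a1 and Hba-a2 reversed to 0.47 and 0.60, and without NP 6 h replicate 1 the difference of Egr1 from NP reversed to 0.29, against -5.53 without replicate 2; the cause was not tested. Depth limits genes of a few CPM at 1 h most, where replicate 2 held 852129 counts.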

Other observations

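MCC CD69-hi cells were also sampled at 24 h, in 3 libraries that enter no comparison here, and their levels place the 6 h values. Il2 stood at 8.55 ± 6.24 CPM at 1 h, 141 ± 27.4 at 6 h and 546 ± 35.2 at 24 h (mean ± SD, n = 3 each). Some genes that rose by 6 h were lower again at 24 h. Tnfrsf9 stood at 10.2 ± 10.4, 531 ± 81.2 and 60.7 ± 10.8 CPM at 1, 6 and 24 h, and Xcl1 at 0, 92.7 ± 10.5 and 12.3 ± 2.65 CPM. Pdcd1 was at 63.7 ± 9.49, 289 ± 19.5 and 139 ± 16.7 CPM at these times.

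Other inhibitory receptors were highest at 24 h. Ctla4 stood at 24.2 ± 2.47, 3.29 ± 1.41 and 101 ± 22.1 CPM at 1, 6 and 24 h, and Lag3 at 3.54 ± 4.54, 4.20 ± 0.751 and 229.5 ± 5.70 CPM. The division genes Mki67 and Top2a, which were scarce at 6 h, stood at 358 ± 78.5 and 512 ± 71.7 CPM at 24 h. The differences from 24 h were not tested.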
